A study of Mus musculus with 11 samples.

Results

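The Stat genes encode the signal transducers and activators of transcription, and 6 of them are described here: Stat2, Stat3, Stat4, Stat5a, Stat5b and Stat6. Their members are all regions of histone H3 lysine 27 acetylation (H3K27ac, a modification found at promoters and enhancers in use) that the authors' deposited table assigns to 1 of these symbols. They came to 60 of 56342 regions: 26 for Stat5b, 16 for Stat5a, 8 for Stat3, 7 for Stat4, 2 for Stat2 and 1 for Stat6. Regions were taken by symbol alone, but the genes were chosen with earlier results of these data known. The cells were Beko, a mouse pre-T cell line, and H3K27ac was profiled by chromatin immunoprecipitation and sequencing (ChIP-seq) in 2 libraries per condition after 24 h with apicidin at 0.01 mg/ml, with the gamma-secretase inhibitor (GSI) DAPT at 10 mg/ml, or with the solvent DMSO. Apicidin inhibits histone deacetylases and is labelled as an HDAC3 inhibitor, and DAPT stops the gamma-secretase cut by which Notch receptors signal. RBPJ, the partner that takes cut Notch to DNA, was profiled in DMSO cells only, in 2 libraries, and each condition had 1 input library, which makes 11 libraries. All groups are the same cell line, and no genotype or allele distinguishes them. The comparisons ask how H3K27ac differs when deacetylation or Notch cleavage is blocked.

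STAT proteins wait in the cytoplasm, are phosphorylated by the receptor-bound JAK kinases when a cytokine binds, pair up, and enter the nucleus to bind DNA. SOCS proteins and phosphatases switch the pathway off again, and some of them are themselves STAT targets. In early T cells the pathway is best known for interleukin-7, whose receptor signals through STAT5A and STAT5B to survival genes. STAT3 serves the gp130 receptors, STAT4 serves IL-12, STAT6 serves IL-4, and STAT2 belongs to the type I interferon complex.

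The deposited values are the authors' log2 fold changes over DMSO with standard errors (SE), and a base mean for each region, which is a mean of normalised read counts over libraries. No value per library was used, so the spread of single libraries stands only in the SE. A region is called higher, or lower, if its deposited adjusted p is under 0.05. Whether the 2 libraries of a condition came from separate cultures is not stated in the labels, so the p-values cover the spread of these libraries alone, and that spread may be technical. The counts are normalised, so every change is relative to other regions, and fewer cells with the mark cannot be told apart from less of the mark per cell. Levels of STAT transcripts and proteins were not measured. Region coordinates are on mm9.

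The 6 genes lie at 3 places. Stat5b, Stat5a and Stat3 are neighbours on chromosome 11, in that order, and hold 50 of the 60 regions within 144 kb. In RefSeq, Stat5b and Stat3 are on the minus strand and Stat5a is on the plus strand, so the Stat5a and Stat3 genes point towards each other. The distances in the authors' deposited table place 2 Stat5b starts 28.0 kb apart, an upstream one 9.90 kb before the Stat5a start and a downstream one inside the gene. Stat2 and Stat6 lie on chromosome 10, and Stat4 lies on chromosome 1. Regions cover a transcription start at 7 places, and 1 region, that at the Stat3 start, is marked as overlapping an RBPJ site (1.67% of the Stat regions, against 2.73% of all regions).

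The promoters of the starts that the results turn on are printed because starts of the same gene and of neighbouring genes differed in their calls. All 6 genes matched RefSeq promoter entries (build GRCm38.p6, 250 bases before to 50 after each start), which gave 9 entries. Entries of the chromosome 11 genes were matched to the starts used in the authors' deposited table by their spacing, which differed between the builds by 2 to 31 bp. The Stat2 entry was not matched in this way. The Stat4 start could not be matched to a single entry, so no Stat4 promoter is printed. In the first pair, capitals mark the bases that are identical between both promoters in an ungapped window of 60 bases.
Stat5a, chr11:100860234-100860533, plus strand: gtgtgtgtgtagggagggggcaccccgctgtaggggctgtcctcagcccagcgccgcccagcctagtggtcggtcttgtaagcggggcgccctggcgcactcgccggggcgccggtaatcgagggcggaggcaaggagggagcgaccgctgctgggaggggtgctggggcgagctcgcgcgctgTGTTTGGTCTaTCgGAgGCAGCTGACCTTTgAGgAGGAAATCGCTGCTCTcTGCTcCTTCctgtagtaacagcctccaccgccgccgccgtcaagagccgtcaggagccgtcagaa
Stat5b downstream start, chr11:100822521-100822820, minus strand: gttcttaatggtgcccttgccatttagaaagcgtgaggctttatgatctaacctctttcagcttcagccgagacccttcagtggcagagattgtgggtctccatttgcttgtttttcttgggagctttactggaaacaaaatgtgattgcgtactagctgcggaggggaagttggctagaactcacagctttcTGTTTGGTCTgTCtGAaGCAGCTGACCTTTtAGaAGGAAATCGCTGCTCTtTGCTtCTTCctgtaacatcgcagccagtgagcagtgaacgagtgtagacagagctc
Counted from the start, whose own base is 1, the window began at -66 in Stat5a and at -57 in Stat5b, and 53 of the 60 bases (88.3%) were identical. The longest run they share has 16 bases, and the longest run shared by any other pair of entries from different Stat genes has 11 bases. The upstream Stat5b start has a different sequence, with 82.7% G or C and 50 CpG pairs, against 47.3% G or C at the downstream one and 67.7% at Stat5a.
Stat5b upstream start, chr11:100850532-100850831, minus strand: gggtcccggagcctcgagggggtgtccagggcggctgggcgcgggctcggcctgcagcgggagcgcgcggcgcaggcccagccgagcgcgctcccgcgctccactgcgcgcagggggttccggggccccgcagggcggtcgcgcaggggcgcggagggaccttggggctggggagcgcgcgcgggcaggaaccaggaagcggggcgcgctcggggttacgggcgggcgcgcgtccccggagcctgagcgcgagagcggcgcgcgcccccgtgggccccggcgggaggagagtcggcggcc
Stat3, chr11:100939491-100939790, minus strand: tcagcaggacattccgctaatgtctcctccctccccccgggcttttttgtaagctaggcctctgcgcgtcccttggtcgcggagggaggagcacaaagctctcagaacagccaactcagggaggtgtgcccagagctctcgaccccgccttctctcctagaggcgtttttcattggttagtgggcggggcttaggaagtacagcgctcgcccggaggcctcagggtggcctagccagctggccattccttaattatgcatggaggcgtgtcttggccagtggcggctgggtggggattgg
Stat2, chr10:128270248-128270547, plus strand: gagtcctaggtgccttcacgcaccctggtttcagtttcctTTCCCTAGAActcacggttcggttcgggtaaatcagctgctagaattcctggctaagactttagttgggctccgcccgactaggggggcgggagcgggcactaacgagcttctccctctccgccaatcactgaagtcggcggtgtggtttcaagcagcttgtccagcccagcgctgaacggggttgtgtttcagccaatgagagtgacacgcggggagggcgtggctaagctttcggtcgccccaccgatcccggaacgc
Both strands were searched for the STAT motif TTCNNNGAA, for the wider STAT6 motif, which has TTC and GAA with 4 free bases between them, and for the RBPJ core TGGGAA. The Stat2 promoter holds 1 match to the wider STAT6 motif, beginning at -210 and in capitals above, and none of the other 8 entries holds a match to any of the 3 motifs. Of 32851 promoters, 8.30% hold the STAT motif, 6.95% the STAT6 motif and 25.6% the RBPJ core. A match is a description of letters only, and the absence of one in this window says nothing of a factor elsewhere.

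By the authors' deposited table, apicidin changed 12 of the 60 Stat regions, with 5 higher and 7 lower (20%), against 23.8% of all regions (9.69% higher and 14.1% lower). The 5 higher regions were 4 of Stat5b, around its downstream start, and the Stat5a start. The 7 lower regions were 5 downstream in the Stat5a set, the Stat2 start and 1 of Stat4. GSI changed 5 of the 28 Stat regions that were tested, 1 higher and 4 lower (17.9%), against 13.8% of all tested regions (6.62% higher and 7.17% lower). The 4 lower regions were all of the Stat5a set, and the higher one was the Stat4 start. For the other 32 regions the authors' deposited table leaves the GSI adjusted p empty, as it does for every region under a base mean of 72.1. Both shares are near those of all regions. The median change of the 60 regions was -0.07 for apicidin and -0.10 for GSI, beside 0.0040 and 0.0022 for all regions, as log2 fold changes in the authors' deposited table.

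**Figure D1:**
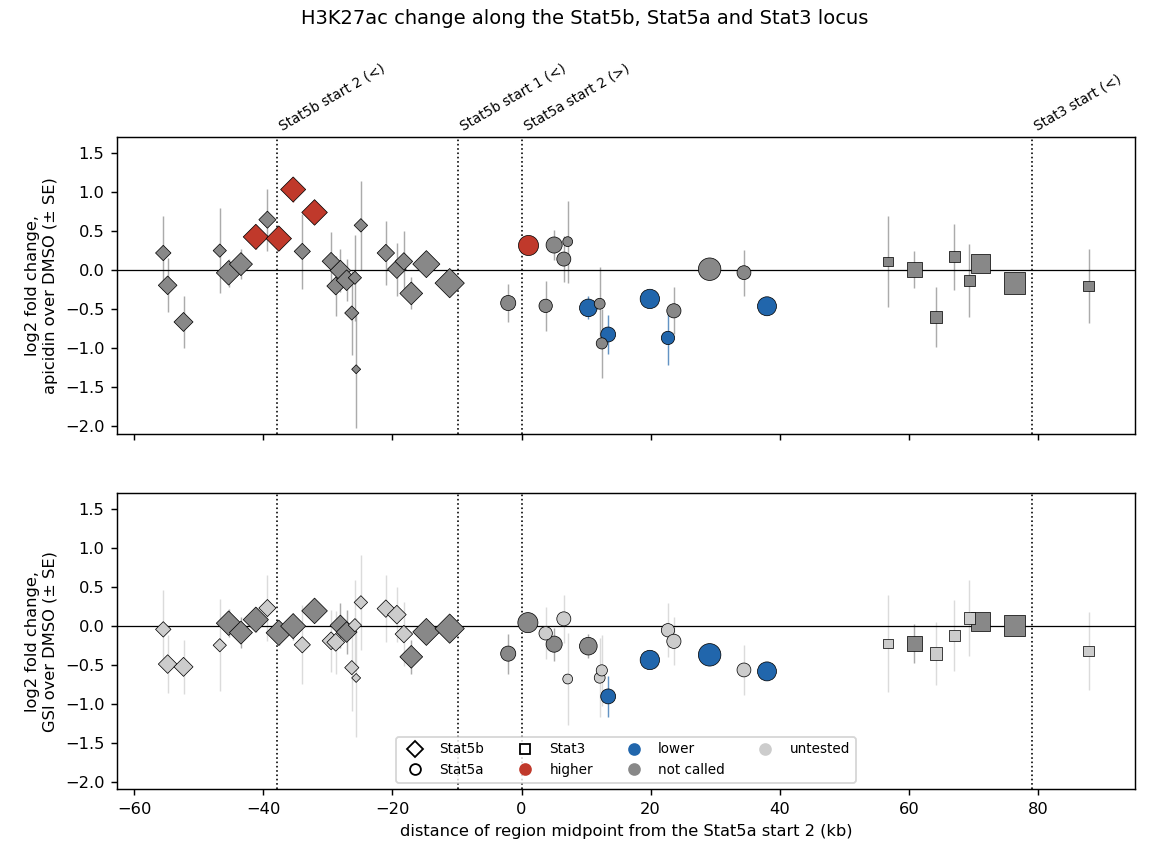
Log2 fold change over DMSO (y axis, bars show the SE) of the 50 regions of Stat5b, Stat5a and Stat3 against the distance of the region's midpoint from the Stat5a start in kb (x axis), with apicidin above and GSI below. Larger points have a higher base mean, dotted lines mark starts (start 2 of Stat5b is the downstream one) and < or > the strand. With apicidin, 4 Stat5b regions around the downstream start were higher and 5 Stat5a regions downstream were lower, and with GSI 4 Stat5a regions downstream were lower.

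Stat5b, which carries interleukin-7 and growth hormone signals together with Stat5a, gained H3K27ac with apicidin around its downstream start. The largest gain lay at chr11:100685447-100687406, 1562 bp from that start and with a base mean of 298, where the authors' deposited table gives a log2 fold change of 1.03 ± 0.16 (SE, 2 libraries per condition, authors' adjusted p = 3.42e-09). The next called region, chr11:100688054-100691431, rose by 0.74 ± 0.13 on the log2 scale (adjusted p = 6.58e-07 in the authors' deposited table). The region over the downstream start, chr11:100683049-100685357, rose by 0.40 ± 0.15 (adjusted p = 0.0277), and chr11:100679284-100682002 on its other side rose by 0.42 ± 0.15 (adjusted p = 0.0261), both in the authors' deposited table. These 4 regions have similar strength, with base means of 298 to 352, and weak regions without a call lie among them.

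The upstream Stat5b start did not pass. Its region at chr11:100708638-100712710 is the strongest of Stat5b, with a base mean of 1291, and its log2 fold change with apicidin was -0.17 ± 0.08 in the authors' deposited table (adjusted p = 0.126). The 95% interval from that SE is -0.33 to -0.01. The difference between both Stat5b starts was not tested. Within 8 kb of the downstream start there are 8 regions, of which 7 lay above 0 and 4 were called higher, with a median log2 fold change of 0.41 in the authors' deposited table. The other 18 Stat5b regions had no call and a median of -0.06 in the authors' deposited table, with values between -1.27 and 0.57 and the widest SE at the weakest regions. This division by distance was chosen after the values were seen, and it is a description with no test.

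With GSI, the authors' deposited table calls none of the 11 tested Stat5b regions, and none had an unadjusted p under 0.05. The region with the largest apicidin gain had a GSI log2 fold change of -0.0074 ± 0.17 in the authors' deposited table (adjusted p = 0.988). The difference there, apicidin minus GSI, was 1.04 ± 0.23 on the log2 scale (adjusted p = 0.000347, from both fold changes and their SEs, over all regions). At chr11:100688054-100691431 the difference was 0.55 ± 0.19 and did not pass (adjusted p = 0.0546), with a GSI value of 0.19 ± 0.14 in the authors' deposited table. At the downstream start region the difference was 0.49 ± 0.21 (adjusted p = 0.152), and at the upstream one it was -0.13 ± 0.12 (adjusted p = 0.713).

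**Figure D2:**
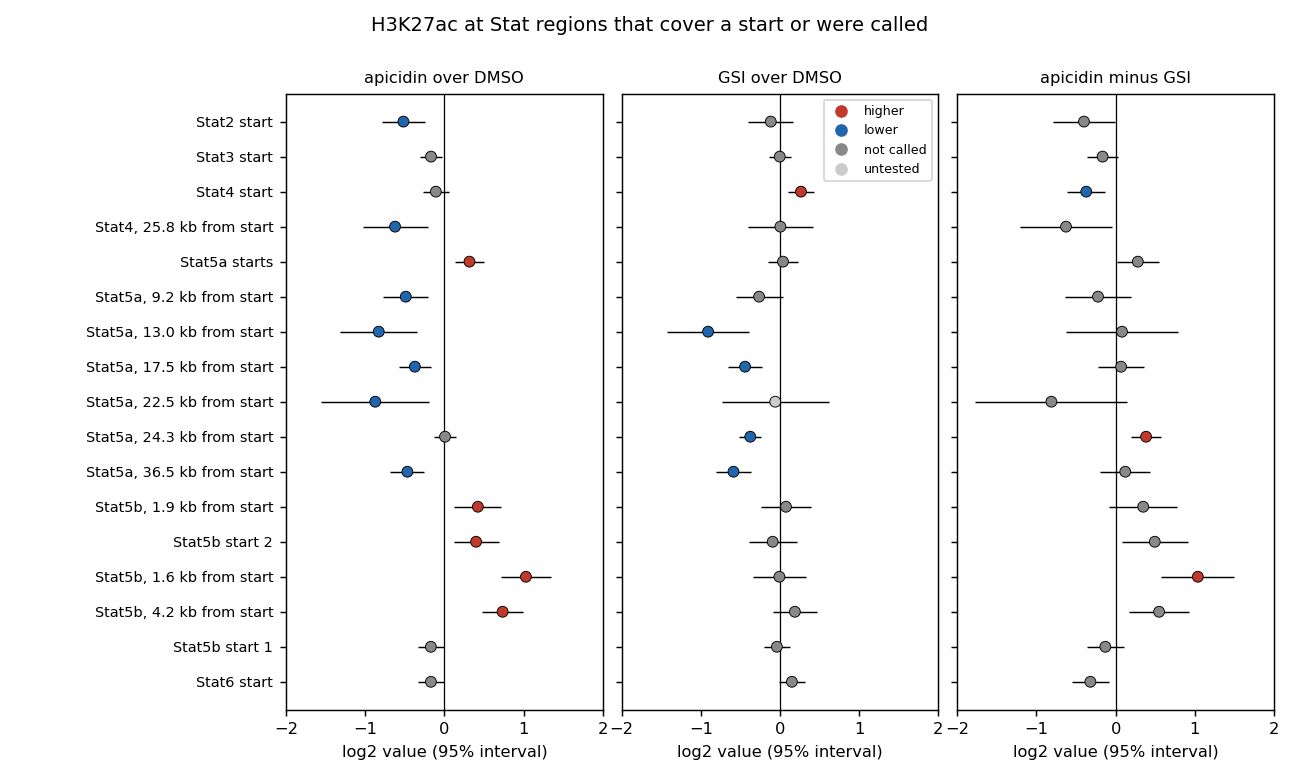
Log2 values (x axis, points with 95% intervals from the SE) for the 17 Stat regions that cover a start or were called, with apicidin over DMSO on the left, GSI over DMSO in the middle and apicidin minus GSI on the right. Distances are to the start used in the table, and start 2 of Stat5b is the downstream one. The 4 Stat5b regions at 0.40 to 1.03 with apicidin sit near 0 with GSI, and the Stat5a region 24.3 kb from its start is at 0.0087 with apicidin and -0.38 with GSI.

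Stat5a, the close relative of Stat5b, had a gain at its start with apicidin and losses downstream with both treatments. The region over the Stat5a starts, chr11:100720611-100724966 with a base mean of 919, rose by 0.32 ± 0.09 with apicidin (adjusted p = 0.00434) in the authors' deposited table. Its GSI value was 0.04 ± 0.10 in the authors' deposited table (adjusted p = 0.868), and the difference between the treatments was 0.28 ± 0.13 (adjusted p = 0.235). The start regions of Stat5a and of the downstream Stat5b start were both higher with apicidin. Their promoters share the 60-base window, and whether that sequence bears on the change was not tested. The other 5 regions within 8 kb of the Stat5a start had no call with either treatment, with values in the authors' deposited table between -0.46 and 0.36 for apicidin and between -0.69 and 0.09 for GSI.

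The losses lay among the 10 regions assigned to Stat5a over 8 kb downstream of its start, between 100730952 and 100761363 on chromosome 11. They lie in the stretch between the Stat5a and Stat3 starts, 79.0 kb long, which holds the bodies of both genes, and the assignment is the authors'. With apicidin 9 of the 10 lay below 0 and 5 were called lower, with a median log2 fold change of -0.48 in the authors' deposited table. With GSI 10 of 10 lay below 0, between -0.91 and -0.06, and 4 of the 5 tested were called lower, with a median of -0.51 in the authors' deposited table. The DMSO libraries are shared by both comparisons, which are therefore no independent evidence of each other. This stretch was also chosen after the values were seen.

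Within it, 3 regions passed with both treatments. At chr11:100734835-100735619, with a base mean of 91.3, the authors' deposited table gives -0.83 ± 0.25 with apicidin (adjusted p = 0.00527) and -0.91 ± 0.26 with GSI (adjusted p = 0.00643). At chr11:100739341-100744022, with a base mean of 642, the values in the authors' deposited table are -0.37 ± 0.10 (adjusted p = 0.00207) and -0.44 ± 0.11 (adjusted p = 0.000648), for apicidin and for GSI. At chr11:100758290-100761363, the farthest from the Stat5a start, the authors' deposited table gives -0.47 ± 0.11 with apicidin (adjusted p = 0.000239) and -0.59 ± 0.12 with GSI (adjusted p = 1.27e-05). The apicidin call at chr11:100739341-100744022 is lost when the trend of all regions over base mean is subtracted (-0.21, adjusted p = 0.144). For apicidin alone, chr11:100730952-100733353 fell by 0.49 on the log2 scale with an SE of 0.15 (adjusted p = 0.00567 in the authors' deposited table), where the GSI value was -0.26 ± 0.15 (adjusted p = 0.276). The weak region chr11:100744264-100744712, with a base mean of 51.0, was at -0.87 ± 0.35 with apicidin by the authors' deposited table (adjusted p = 0.0499) and was untested with GSI. Its call is lost on centring, that is, with the median change of the stronger regions subtracted (-0.77, adjusted p = 0.0931), and with the trend subtracted (-0.85, adjusted p = 0.0596).

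The broadest and strongest Stat region, also in this stretch, differed between the treatments. It spans 9687 bp at chr11:100746099-100755785, has a base mean of 3442 and stands at the percentile 99.5 of base mean among all regions. Its log2 fold change was 0.0087 ± 0.07 with apicidin (adjusted p = 0.951) and -0.38 ± 0.07 with GSI (adjusted p = 3.19e-06) in the authors' deposited table. The apicidin interval runs from -0.13 to 0.14. The difference between the treatments was 0.38 ± 0.10 (95% interval 0.19 to 0.58, adjusted p = 0.00219). Of the 60 Stat regions, 2 had a higher difference (this one and the largest Stat5b gain) and 1 a lower one (the Stat4 start), 5% in all, against 8.61% of all regions. Of all regions, 3.01% had a higher and 5.6% a lower difference. On centring, 3 Stat regions were higher and 0 lower in this difference, and with the trend over base mean subtracted 5 were higher and 0 lower. The calls of all regions moved the same way. Their 1698 higher and 3155 lower became 2367 and 2133 on centring, and 2554 and 1851 with the trend subtracted.

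Stat3, the STAT of the gp130 cytokines, had no call with apicidin in its 8 regions and none with GSI in its 3 tested regions in the authors' deposited table. These are only the regions that the authors assigned to Stat3. The losses assigned to Stat5a lie between the Stat5a and Stat3 starts, a stretch that holds the bodies of both genes. Among the Stat3 regions, 1 had an unadjusted p under 0.05 with apicidin and 0 with GSI. The start region at chr11:100794434-100801945 is the second broadest Stat region, with a width of 7512 bp and a base mean of 1868, and it is the one that overlaps an RBPJ site. Its log2 fold change was -0.17 ± 0.07 with apicidin (adjusted p = 0.0628, interval -0.30 to -0.03) and -0.0030 ± 0.07 with GSI (adjusted p = 0.988, interval -0.14 to 0.14) in the authors' deposited table. The second strongest Stat3 region, chr11:100791546-100794293 with a base mean of 623, was at 0.08 ± 0.10 with apicidin and 0.05 ± 0.11 with GSI in the authors' deposited table. The other 6 are weak, with base means of 15.8 to 103 and SEs up to 0.58 with apicidin, so only large changes could have passed there.

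Stat4, which carries IL-12 signals in T cells and natural killer cells, was the only one of the 6 genes with a call for higher H3K27ac with GSI. Its start region at chr1:52065029-52070232, with a base mean of 1107, rose by 0.26 ± 0.09 with GSI (adjusted p = 0.0203) and was at -0.11 ± 0.09 with apicidin (adjusted p = 0.413) in the authors' deposited table. The difference, apicidin minus GSI, was -0.37 ± 0.12 (adjusted p = 0.0292). With the trend over base mean subtracted the GSI value was 0.25, and its call was kept when adjusted over the regions that the authors tested (adjusted p = 0.0342) and lost when adjusted over all 56342 regions (adjusted p = 0.0670, which leaves 0 higher and 4 lower among the Stat regions). Adjustment over all regions alone gave an adjusted p of 0.0406. The call of the difference is lost on centring (-0.27, adjusted p = 0.182) and with the trend subtracted (-0.18, adjusted p = 0.521). At 25840 bp from the start, chr1:52090929-52092507 fell to a log2 fold change of -0.62 ± 0.21 with apicidin (adjusted p = 0.0160) and was at 0.0050 ± 0.21 with GSI (adjusted p = 0.994) in the authors' deposited table. That apicidin call is lost on centring (-0.52, adjusted p = 0.0529). The other 5 Stat4 regions had no call with either treatment, with apicidin values between -0.71 and 0.32 in the authors' deposited table.

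The regions that the authors assigned to Stat2 and Stat6 are few and lie at or near the starts. Regions assigned to neighbouring genes were not examined there. The Stat2 start region at chr10:127706862-127708241, with a base mean of 362, was lower with apicidin at -0.52 ± 0.14 (adjusted p = 0.00198) and was at -0.12 ± 0.14 with GSI (adjusted p = 0.687) in the authors' deposited table. The difference between the treatments was -0.40 ± 0.20 and did not pass (adjusted p = 0.276). The second Stat2 region, 1351 bp from the start with a base mean of 46.3, was at 0.33 ± 0.34 with apicidin in the authors' deposited table (adjusted p = 0.543). Stat6, the mediator of IL-4 signals, has 1 region, chr10:127078964-127081664 with a base mean of 1186. Its values in the authors' deposited table were -0.17 ± 0.08 with apicidin (adjusted p = 0.139) and 0.15 ± 0.09 with GSI (adjusted p = 0.274). The difference at Stat6 was -0.32 ± 0.12 (interval -0.55 to -0.08, adjusted p = 0.0786).

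Over the 7 start regions together, apicidin gave 2 higher and 1 lower in the authors' deposited table, where 47.4% of all start regions were called, 8.01% higher and 39.4% lower. GSI gave 1 higher and 0 lower, where 9.61% of all start regions with a test were called, 5.25% higher and 4.36% lower. As a level per kb of region, a mean over all libraries, Stat6 had the highest start signal at 439 normalised reads per kb, followed by the upstream Stat5b start at 317, Stat2 at 262 and Stat3 at 249 in the authors' deposited table. Stat4 and Stat5a were close together at 213 and 211, and the downstream Stat5b start was lowest at 142. The Stat5a region 24.3 kb from its start, at 355 per kb, exceeded all start regions but that of Stat6. No spread over libraries is known for these levels, so neighbours in this order are not told apart.

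**Figure D3:**
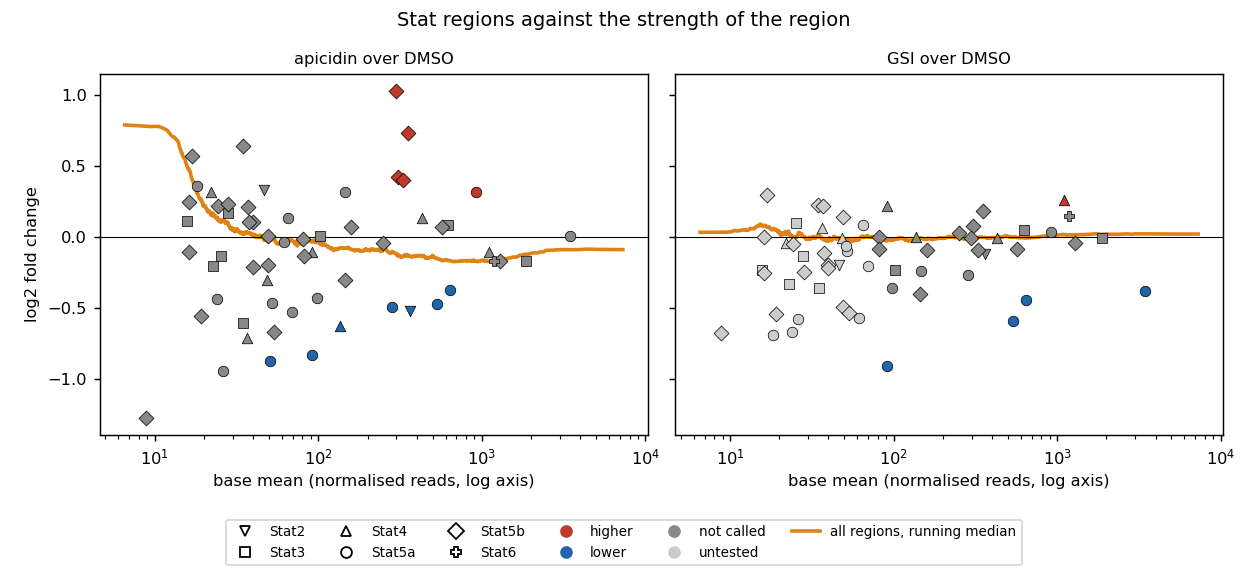
Log2 fold change over DMSO (y axis) of the 60 Stat regions against their base mean (x axis, log scale), with apicidin on the left and GSI on the right, shapes for genes and colours for calls. The line is the running median of all regions over windows of 2001 regions. The 4 called Stat5b regions at base means of 298 to 352 and the Stat5a start lie above the line with apicidin, and no region below a base mean of 72.1 has a GSI test.

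By the rule for likeness (smallest distance in both log2 fold changes, over the 2 comparisons, among regions within 2-fold of the base mean), the regions most like the largest Stat5b gain, of 11836 compared, were assigned to Itga9, Arid1a and Nck2. Their log2 fold changes in the authors' deposited table were 1.03, 1.02 and 1.06 with apicidin and 0.0046, -0.03 and -0.04 with GSI. For the broad Stat5a region, of 1072 compared, the most alike were assigned to Hpcal1, Fam86 and Cul3, with 0.02, -0.02 and -0.05 for apicidin and -0.36, -0.36 and -0.36 for GSI in the authors' deposited table.

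The rest of the JAK-STAT pathway was read from a list of 50 genes, each taken at its strongest region, and 46 of them occur in the authors' deposited table. This list was also chosen with earlier results of these data known. Apicidin gave 12 higher and 8 lower, with a median log2 fold change of -0.0031, and over the strongest regions of all genes 12% were higher and 33.5% lower with a median of -0.18. With the centred values the 12 and 8 become 18 and 5, and with the trend subtracted they become 19 and 4. GSI gave 4 higher and 6 lower of 44 tested, with a median of 0.05, where 7.74% of all genes were higher and 6.8% lower with a median of 0.0071.

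Of the 4 JAK kinases, 2 were called higher with apicidin at their strongest region and 0 lower in the authors' deposited table, and in both cases that region lies away from the start. By the authors' deposited table, the strongest region of Tyk2, a kinase of interferon and IL-12 receptors, lies 2980 bp from its start and rose by 1.21 ± 0.13 with apicidin (adjusted p = 2.52e-18) and by 0.61 ± 0.14 with GSI (adjusted p = 0.000165). The difference was 0.59 ± 0.19 (adjusted p = 0.0248). The Tyk2 start region was at 0.03 with apicidin (adjusted p = 0.936) and -0.07 with GSI (adjusted p = 0.885) in the authors' deposited table. Jak1, which pairs with most cytokine receptors, had its strongest region 75969 bp from its start, which rose by 0.75 ± 0.09 with apicidin (adjusted p = 2.61e-14) and was at 0.22 ± 0.10 with GSI (adjusted p = 0.120) in the authors' deposited table. The Jak1 start region went the other way and was lower with apicidin, at -0.38 (adjusted p = 0.00417), and was at 0.03 with GSI (adjusted p = 0.919) in the authors' deposited table. By the authors' deposited table, apicidin gave 8 higher and 1 lower call among the 42 Jak1 regions. Jak2 and Jak3, the partner of the common gamma chain, had no call, with 0.0021 and -0.15 for apicidin in the authors' deposited table.

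Among 8 gamma-chain or gp130 receptor genes, apicidin gave 4 higher and 2 lower in the authors' deposited table, and GSI 1 and 1 of 7 tested. Il21r, the IL-21 receptor, had the largest gain with both treatments among the genes named from the list, in a region 26306 bp from its start, 2.32 ± 0.18 with apicidin (adjusted p = 4.62e-36) and 2.53 ± 0.18 with GSI (adjusted p = 1.50e-41) in the authors' deposited table. Il2rg, the common gamma chain itself, rose by 0.46 ± 0.09 with apicidin (adjusted p = 3.55e-06 in the authors' deposited table), as did Il9r, the IL-9 receptor, by 0.46 ± 0.08 (adjusted p = 2.47e-07). Among the 14 Il9r regions, however, apicidin gave 1 higher and 2 lower calls, and GSI 0 higher and 1 lower of 6 tested. Il15ra, which presents IL-15, was lower with both, at -0.76 ± 0.09 with apicidin (adjusted p = 3.00e-14) and -0.51 ± 0.10 with GSI (adjusted p = 3.16e-06) in the authors' deposited table.

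Of 8 interferon or IL-12 family receptor genes, 3 were higher and 0 lower with apicidin in the authors' deposited table, and 1 was higher and 1 lower with GSI. Il12rb1 and Il12rb2, the chains of the IL-12 receptor upstream of Stat4, rose at their strongest regions, over the start of Il12rb1 and 35223 bp from the start of Il12rb2, by 0.82 ± 0.07 (adjusted p = 5.27e-27) and 0.56 ± 0.09 (adjusted p = 3.92e-08) with apicidin in the authors' deposited table. Their GSI values were 0.18 and -0.15 in the authors' deposited table, and the differences were 0.65 (adjusted p = 9.55e-08) and 0.71 (adjusted p = 6.94e-06). The Il12rb2 start region was at -0.02 with apicidin (adjusted p = 0.928) and was lower with GSI, at -0.45 by the authors' deposited table (adjusted p = 0.00222). Il10ra, a receptor that signals through Stat3, rose in a region 4527 bp from its start by 0.53 ± 0.13 with apicidin (adjusted p = 0.000321 in the authors' deposited table). The Il10ra start region rose too, by 0.61 with apicidin (adjusted p = 8.97e-07), and was at -0.21 with GSI (adjusted p = 0.279) in the authors' deposited table. By the authors' deposited table, Il27ra was lower with GSI at -0.33 ± 0.12 (adjusted p = 0.0305), a call lost at the same value when adjusted over all 56342 regions (adjusted p = 0.0600).

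Of 14 negative regulators, 2 were higher and 3 lower with apicidin, and for GSI 1 was higher and 2 were lower, by the authors' deposited table. In the authors' deposited table, Socs3, the feedback inhibitor of Stat3 signalling, was at 0.15 ± 0.08 with apicidin (adjusted p = 0.149) and fell by 0.73 with an SE of 0.08 with GSI (adjusted p = 5.84e-17), and its region overlaps an RBPJ site. The difference at Socs3 was 0.88 ± 0.11 (adjusted p = 1.92e-12). The strongest regions of Socs6, Ccnd3, Myc and Gfi1 overlap an RBPJ site too. With GSI, Socs6 and Ccnd3 were not called, and Myc and Gfi1 were lower. Socs1, Il15ra and Il27ra were lower with GSI without such an overlap. Of the strongest regions of all genes, 8.58% overlap an RBPJ site. Socs1, an inhibitor of JAK kinases, fell by 0.39 with an SE of 0.05 with GSI (adjusted p = 1.06e-11) and was at -0.09 with apicidin (adjusted p = 0.242) in the authors' deposited table, in a region 92731 bp from its start. The Socs1 start region was at -0.0087 with apicidin and -0.47 with GSI in the authors' deposited table. Among the 29 Socs1 regions, apicidin gave 2 higher and 6 lower calls, and GSI 0 higher and 5 lower of 13 tested. Socs7, a less studied relative, fell by 0.51 with an SE of 0.10 with apicidin (adjusted p = 7.10e-06 in the authors' deposited table). In the authors' deposited table, Ptpn2, a phosphatase that removes phosphate from JAKs and STATs, rose by 0.24 ± 0.07 with apicidin (adjusted p = 0.00643) and by 0.38 ± 0.08 with GSI (adjusted p = 1.42e-05).

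Of 12 STAT target genes, 1 was higher and 3 lower with apicidin, and 0 higher and 2 lower of 11 tested with GSI, in the authors' deposited table. Ccnd2, a cyclin of early cell cycle, rose by 0.88 ± 0.18 with apicidin (adjusted p = 8.52e-06 in the authors' deposited table). Myc, a driver of growth and also a Notch target, was lower in the authors' deposited table at -0.26 ± 0.06 with apicidin (adjusted p = 0.000255) and at -0.40 ± 0.06 with GSI (adjusted p = 1.19e-08). By the authors' deposited table, Bcl2l1, a survival gene and Stat5 target, was lower with apicidin in a region 13642 bp from its start, at -0.31 ± 0.11 (adjusted p = 0.0259), but the call is lost on centring (-0.21, adjusted p = 0.167). The Bcl2l1 start region was at 0.33 with apicidin by the authors' deposited table (adjusted p = 0.509). By the authors' deposited table, Gfi1, a repressor of early T cells, was lower over its start with apicidin at -0.19 ± 0.05 (adjusted p = 0.00202) and with GSI at -0.16 ± 0.05 (adjusted p = 0.0170), and the apicidin call is lost on centring (-0.09, adjusted p = 0.230). Among the 22 Gfi1 regions, apicidin gave 3 higher and 1 lower call, and GSI 0 higher and 2 lower of 10 tested.

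**Figure D4:**
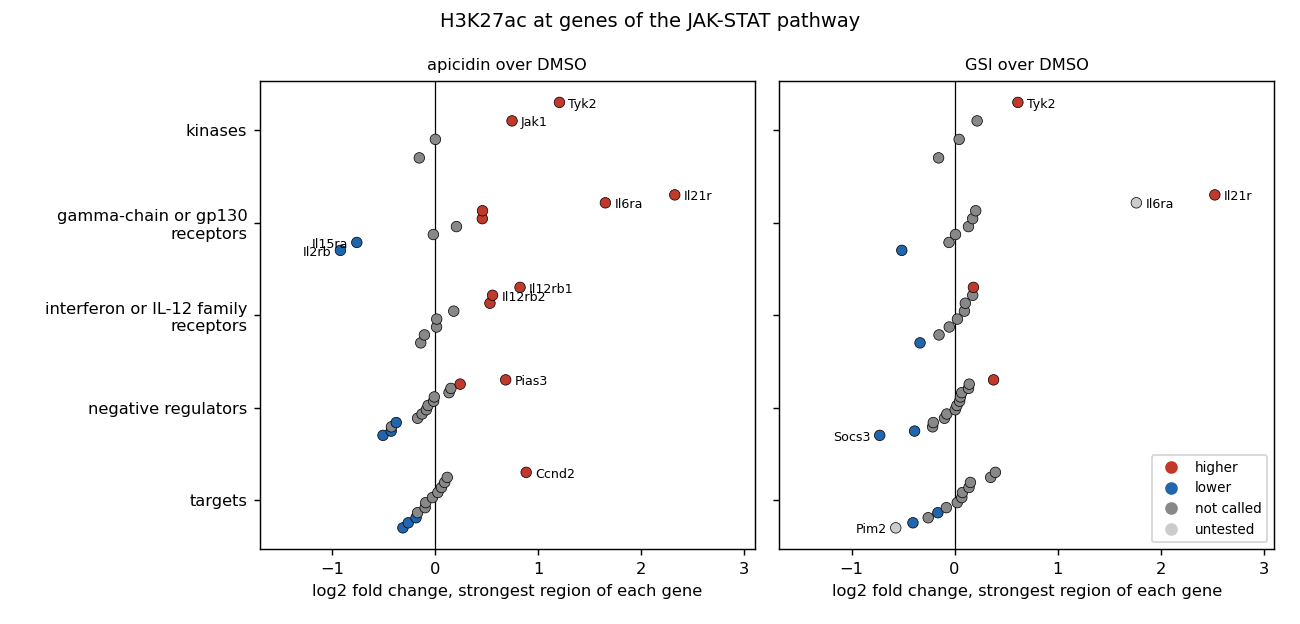
Log2 fold change over DMSO (x axis) of the strongest region of each of 46 JAK-STAT pathway genes, with apicidin on the left and GSI on the right, in rows by role and with colours for calls. Some genes past a large change are labelled. Tyk2 is at 1.21 with apicidin and 0.61 with GSI, Il21r is at 2.32 and 2.53, and Socs3 is at -0.73 with GSI.

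The label of the cells was checked on marker genes. A region covers the start of 7 of 7 pre-T cell markers (Ptcra, Cd3e, Cd3g, Rag1, Thy1, Lck and Tcf7), with base means of 690 to 8020 in the authors' deposited table. None does for 4 B-lineage, 4 myeloid, 3 erythroid and 3 fibroblast markers. Most of these other markers have regions away from the start, up to 15 for Col1a2 and 9 for Itgam. Pax5, Csf1r, Lyz2 and Cebpa have no region.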

How the data were processed

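H3K27ac ChIP-seq of Beko cells was available as 1 deposited table of 56342 regions, with no column per library. Per the submitters' processing notes, FastQC, Bowtie2, SAMtools and deepTools were used, on build mm9. Not given in the sources used here are the region caller, the counter and how the inputs were used. Per the file headers the columns are those of DESeq2. The deposited base mean is a signal, averaged by the authors over normalised read counts. The log2 fold changes and their SEs are the authors', and the fold change's reference, not named in the header, was taken as DMSO. The Wald score, the p-values and the adjusted p-values (Benjamini-Hochberg) are the authors' too. The distance to a start, the symbol and the RBPJ mark are also in the deposited table.

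The planned count models need values per library, so the deposited values were used. The difference, apicidin minus GSI, was the difference of the 2 log2 fold changes over the root of their summed squared SEs. Its two-sided p came from the normal distribution and was adjusted by Benjamini-Hochberg over 56342 regions. Since DMSO is shared, that SE is an upper bound. Intervals are 95% and cover only the SE. Depth per library is unknown. The SEs of the Stat regions ran from 0.07 to 0.75 (median 0.30) for apicidin and from 0.07 to 0.76 (median 0.31) for GSI. Alternatives were a stricter threshold of 0.01, centring on the median of the stronger regions, those whose base mean reached the median (-0.10 for apicidin, -0.00098 for GSI), subtracting a running median over base mean (2001 regions), regions within 10 kb of a start, stronger regions only, a minimum change of 0.5, and, for GSI, adjustment over all regions. Centred and trend-subtracted p-values were adjusted over all regions, for GSI too, and, as an alternative chosen after seeing the data, over the 25756 regions with a deposited GSI adjusted p. Centring moved the apicidin calls of all regions, 5462 higher and 7958 lower as deposited, to 7149 and 5866. Named Stat regions are those that cover a start, passed in either comparison or in the difference, or were the strongest of a gene, and named pathway genes are the 4 with the smallest adjusted p per role. The second regions of Stat2 and Stat3 were added after their values were seen. The members and lists were chosen with earlier results of these data known. Python 3.11.15 with pandas 2.3.3, NumPy 2.4.6, SciPy 1.17.1 and matplotlib 3.10.9 was used, and the scripts were tested on simulated data. Promoter sequences and gene order came from RefSeq (GRCm38.p6).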

Additional observations from a re-analysis of the deposited data

How the results depend on the processing

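No paired analysis was possible because the deposited table holds no value per library, and leaving out single libraries was not run for the same reason. Against 5 higher and 7 lower Stat regions with apicidin, an adjusted p under 0.01 left 3 higher, a minimum change of 0.5 left 2 higher and 4 lower, and a limit of 10 kb from a start left 2 lower. Against 1 higher and 4 lower with GSI, the higher one was lost (0) at 0.01, at a minimum change of 0.5 and with the trend subtracted and adjusted over all regions, but was kept with the trend subtracted and adjusted over the tested regions, a setting added after seeing the data, and the lower ones became 0 within 10 kb and 2 at a minimum change of 0.5. Against 2 higher and 1 lower in the difference, the higher became 5 with the trend subtracted, 1 within 10 kb and 1 at a minimum change of 0.5, and the lower became 0 at 0.01, on centring, with the trend subtracted and at a minimum change of 0.5, and 2 among stronger regions. Over all regions, centring and subtracting the trend also gave more higher and fewer lower calls of the difference. For the JAK-STAT list, apicidin's 12 higher became 18 on centring, 19 with the trend subtracted and 7 with the region over the start (41 genes), its 8 lower became 5 and 4 on centring and with the trend subtracted, and GSI's 4 higher became 2 with the region over the start. Averaging all regions of a gene gave list medians of 0.08 for apicidin and 0.08 for GSI. Fewer regions enter under the distance, strength and size limits; for the other settings the cause was not tested. Of 94 checks of single named Stat regions, 81 kept their direction and side of the threshold, 13 lost the call and 0 reversed. The threshold of 0.01, the stronger regions and the adjustment over all regions leave the fold change as it was. No reversal could occur under those settings. The limits of 10 kb and of a 0.5 change are not among these checks, and the GSI settings added after seeing the data are. Weak regions, with SEs up to 0.75, limit what could pass.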
